A study of Homo sapiens with 8 samples.

Results

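The metallothioneins and zinc export were examined through 9 genes named by symbol: MT1E, MT1F, MT1G, MT1H, MT1M, MT1X and MT2A, which encode metallothioneins, MTF1 and SLC30A1. They were 9 of the 19056 genes with a usable probe on the arrays and were found through the accession each of 11 probes carries. Of the 9 members, 7 had a probe called well above background by the scanner software on each of the 8 arrays, and MT1G and MT1M were well above background on none.

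A549 is a human lung adenocarcinoma line, and its cells were exposed to EEDS, an ethanol extract of Descurainia sophia seeds, or to helveticoside, a cardiac glycoside that the study names as a component of that extract. One series of 4 one-colour arrays held a vehicle control and EEDS at 1.25, 5 and 20 µg/mL, and another held its own vehicle control and helveticoside at 3.75, 15 and 60 nM. The RNA of 3 cultures was pooled for every array, and with 1 array per dose there are no replicates. The labels give 48 h of exposure and the methods 24 h. A549 is 1 cell line, the doses of the 2 agents are not matched, and an effect of the agent cannot be told apart from one of its series. The 8 fixed A549 and epithelial markers, among them KRT8, KRT18 and EPCAM, were well above background on all arrays. Among markers of other cell types, CD3E, PECAM1, VWF and PDGFRB were well above background on none, COL3A1 on 1, and PTPRC, CD14, CDH5 and COL1A1 on all 8. A change in RNA per cell and a change in the share of cells that hold an RNA cannot be told apart on these arrays.

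Metallothioneins are small, cysteine-rich proteins that bind zinc, copper and cadmium and buffer the free metal of the cytosol. Their genes are switched on by MTF1, a zinc-finger transcription factor that senses zinc and binds short metal response elements in promoters. SLC30A1, also called ZnT1, sits in the plasma membrane, carries zinc out of the cell and is another known MTF1 target. Cardiac glycosides such as helveticoside inhibit the sodium-potassium pump.

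The 7 metallothionein members lie together on chromosome 16, at chr16:56608584-56684196 in GRCh38.p14, a span of 75.6 kb. MTF1 lies at chr1:37809574-37859592 and SLC30A1 at chr1:211571568-211579161 of the same build. RefSeq promoter sequence was at hand for 5 members, MT1H, MT1X, MT2A, MTF1 and SLC30A1. The core letters of the metal response element were searched on both strands of the 250 bases before each start, as TGCACNC and TGCGCNC. The 4 member promoters with a match are shown 5′ to 3′ on the gene's strand, because they show how often these letters recur before member genes and where. Capitals mark each match, and a match on the opposite strand appears as its reverse complement. MT2A is at chr16:56608334-56608583, plus strand, MT1H at chr16:56669564-56669813, plus strand, MT1X at chr16:56682220-56682469, plus strand, and SLC30A1 at chr1:211579162-211579411, minus strand.
MT2A: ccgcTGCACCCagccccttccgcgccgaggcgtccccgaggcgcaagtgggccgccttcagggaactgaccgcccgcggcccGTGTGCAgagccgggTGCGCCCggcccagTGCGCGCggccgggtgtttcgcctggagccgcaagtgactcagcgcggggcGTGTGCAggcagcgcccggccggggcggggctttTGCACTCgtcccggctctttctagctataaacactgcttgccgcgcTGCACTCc
MT1H: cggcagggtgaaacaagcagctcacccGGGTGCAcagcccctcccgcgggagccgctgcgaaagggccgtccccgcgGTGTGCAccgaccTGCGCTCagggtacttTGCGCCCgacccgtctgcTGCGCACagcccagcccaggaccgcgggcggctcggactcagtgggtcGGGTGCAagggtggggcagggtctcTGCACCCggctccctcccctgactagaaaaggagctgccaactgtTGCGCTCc
MT1X: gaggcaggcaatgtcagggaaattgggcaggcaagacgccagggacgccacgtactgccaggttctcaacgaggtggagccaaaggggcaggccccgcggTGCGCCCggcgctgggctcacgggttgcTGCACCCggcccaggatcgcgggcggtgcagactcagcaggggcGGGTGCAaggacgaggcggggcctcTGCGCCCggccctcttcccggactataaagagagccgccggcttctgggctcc
SLC30A1: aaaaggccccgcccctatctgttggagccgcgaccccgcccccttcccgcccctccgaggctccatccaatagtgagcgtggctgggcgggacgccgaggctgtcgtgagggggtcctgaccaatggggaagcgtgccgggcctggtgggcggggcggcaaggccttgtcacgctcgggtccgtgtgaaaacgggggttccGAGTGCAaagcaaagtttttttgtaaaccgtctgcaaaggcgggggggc

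The MT1H promoter held 8 matches, that of MT2A 7 and that of MT1X 4, and no matches overlapped in these sequences. The SLC30A1 promoter held 1 match, 49 bases before the start, and the MTF1 promoter held 0. Among the other metallothionein genes with an entry, the promoters of MT1B and MT4 held 3 matches each, and MT4 was well above background on no array. Of 35116 promoters in the RefSeq table, 24.8% held at least 1 match, 1.58% at least 3, 0.37% at least 4 and 0.0513%, or 18 promoters, at least 6. A match of these letters is a description of the sequence and not a bound site.

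Values below are log2 levels of the quantile-normalized processed signal, given for the vehicle control and then the lowest, middle and top dose. A log2 ratio is a treated level minus that of the vehicle control of its own series. The scanner software's own error for a member's ratio was 0.20 to 0.23 on the log2 scale, which covers reading 1 array and not the spread between cultures. Over 11498 genes that cleared the background on every array, the levels of the 2 vehicle controls differed with an SD of 0.48 on the log2 scale. Levels of different probes are not compared.

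MT2A, the most widely expressed metallothionein, stood highest at the middle EEDS dose and at the middle and top helveticoside doses. Its log2 level was 16.34, 16.94, 17.55 and 17.08 in the EEDS series. In the helveticoside series it was 16.09, 16.45, 17.11 and 17.14. All 6 treated arrays lay above both controls, and in the EEDS series the top dose was below the middle one. MT2A was 1.52-, 2.31- and 1.67-fold its control at the 3 EEDS doses and 1.28-, 2.02- and 2.07-fold at the 3 helveticoside doses. Before normalization, its processed signal went from 68700 in the EEDS control to 200000 at 5 µg/mL and 151000 at 20 µg/mL, with no saturated spot.

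MT1E, a metal-binding isoform of the MT1 group, was highest at the middle dose of both agents. Its log2 level was 12.80, 13.48, 13.83 and 13.06 with EEDS and 12.81, 13.38, 13.91 and 13.62 with helveticoside. All 6 treated arrays lay above both controls. Relative to its control, it was 2.05-fold higher at 5 µg/mL EEDS and 1.20-fold at 20 µg/mL, against 2.14-fold at 15 nM helveticoside and 1.75-fold at 60 nM.

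MT1H, of the same MT1 group, followed the same order of doses. The log2 level of its bright probe was 13.55, 14.28, 14.61 and 13.81 with EEDS and 13.68, 14.09, 14.67 and 14.35 with helveticoside. The 6 treated arrays lay above both controls, with log2 ratios of 1.06 at the middle EEDS dose and 0.99 at the middle helveticoside dose. Its other probe was well above background on no array, and no value is given for it.

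MT1X was read by a pair of probes that did not move alike. The brighter probe, used for the gene, had log2 levels of 13.77, 14.49, 14.58 and 13.90 with EEDS and 13.59, 14.01, 14.45 and 14.08 with helveticoside. The dimmer probe had log2 levels of 11.48, 12.20, 11.48 and 10.82 with EEDS and 10.90, 11.73, 11.34 and 10.56 with helveticoside. Both probes stood above their control at the lowest dose of each agent, and at the top dose the brighter one was above it and the dimmer one below. At the top dose the log2 ratios of the brighter probe were 0.13 with EEDS and 0.49 with helveticoside, and those of the dimmer probe were -0.67 and -0.34.

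MT1F, another MT1 isoform, ran the other way above the lowest dose. Its log2 level was 8.99, 9.34, 8.77 and 8.50 with EEDS and 8.78, 9.17, 8.60 and 8.34 with helveticoside. In each series the lowest dose gave the highest of the 4 arrays and the top dose the lowest. The log2 ratios at the 3 doses were 0.35, -0.22 and -0.48 with EEDS and 0.39, -0.18 and -0.44 with helveticoside.

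MTF1 differed from the metallothioneins in having its highest level at the top dose of both agents. Its log2 level was 8.66, 8.63, 9.01 and 9.17 with EEDS and 8.11, 8.40, 8.60 and 8.94 with helveticoside. The helveticoside control lay 0.55 below the EEDS control on the log2 scale, so that the treated levels of helveticoside up to 15 nM lay below the EEDS control. Against its own control, MTF1 was 1.42-fold higher at 20 µg/mL EEDS and 1.79-fold higher at 60 nM helveticoside.

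SLC30A1, the zinc exporter, was lowest at the top dose of both agents. Its log2 level was 9.41, 9.77, 9.31 and 9.20 with EEDS and 9.30, 9.25, 9.20 and 8.57 with helveticoside. The array at 60 nM helveticoside stood below all others, while the other 2 helveticoside doses were within 0.10 of their control. The log2 ratio at the top dose was -0.21 with EEDS and -0.72 with helveticoside.

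**Figure D1:**
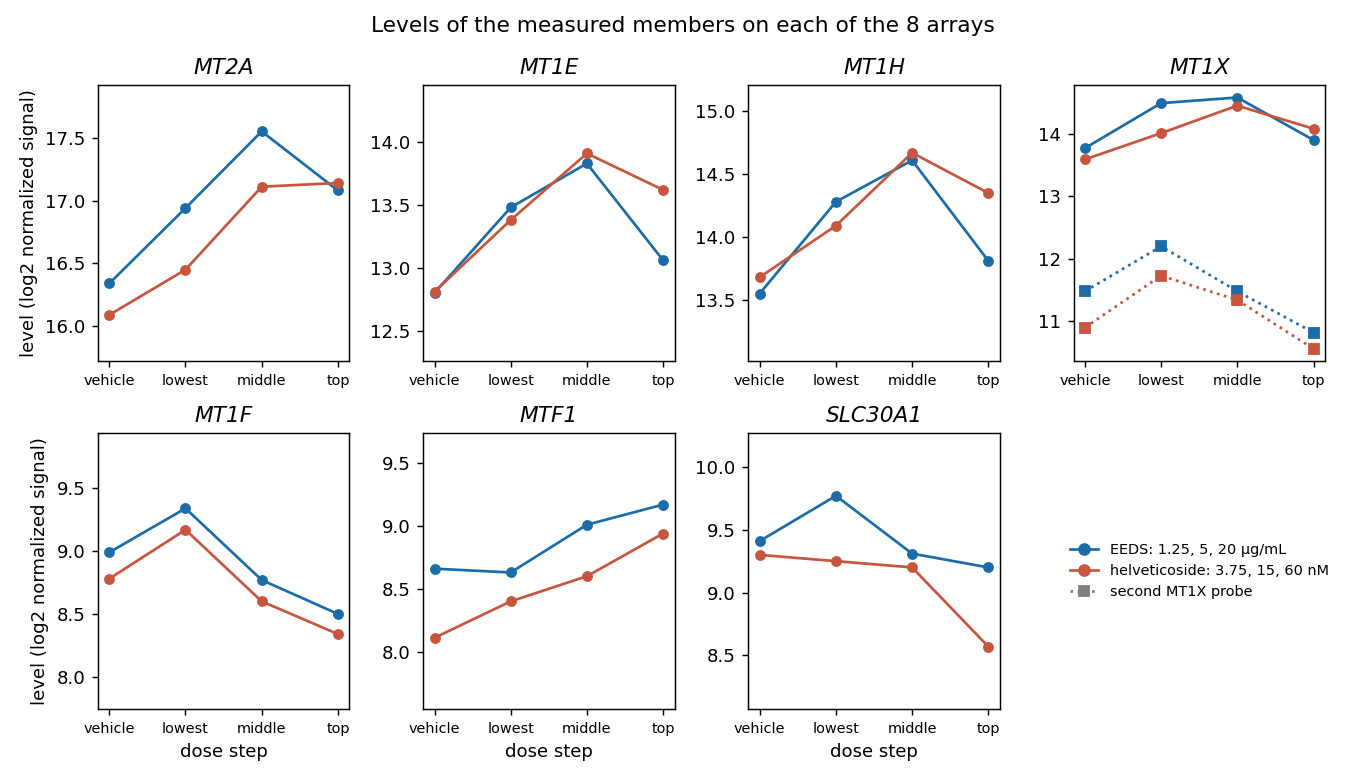
Log2 normalized signal (vertical axis, each panel at its own level) at the vehicle, lowest, middle and top dose step (horizontal axis) for the 7 measured members, with EEDS in blue, helveticoside in red, 1 point per array and a dotted line for the second MT1X probe. MT1E, MT1H and the brighter MT1X probe are highest at the middle step of both agents, MTF1 at the top step, and MT1F at the lowest step.

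Counted at the 2-fold limit, and only where both arrays of a ratio were well above background, 3 members were higher at the middle EEDS dose (MT1E, MT1H and MT2A), where 7.6% of 13144 genes were. MT1E and MT2A, 2 members, were higher at the middle helveticoside dose, against 5.52% of 12151 genes, and MT2A, 1 member, at the top helveticoside dose, against 11.0% of genes. No member was over 2-fold higher at the lowest dose of EEDS (3.74% of genes), at its top dose (15.0%) or at the lowest dose of helveticoside (1.24%). No member was over 2-fold lower at any dose, where the shares of all genes from the lowest to the top dose were 3.0%, 8.3% and 15.9% for EEDS and 1.19%, 6.7% and 13.0% for helveticoside. The median log2 ratio of the 7 measured members was 0.81 at the middle EEDS dose and 0.85 at the middle helveticoside dose, with medians over all genes of 0.00 and -0.01. At the top dose the members' median was 0.26 with EEDS and 0.67 with helveticoside, against 0.02 and 0.03 over all genes. The MT1 probes may read shared MT1 RNA, as set out below, so these counts and medians may hold the same signal more than once.

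The size of these ratios moved with the scaling. When each array was scaled by its 75th percentile, the median of all genes shifted by -0.36 at the top EEDS dose and by -0.18 at the top helveticoside dose on the log2 scale. With that scaling MT2A had a log2 ratio of 0.51 at the top EEDS dose, against a quantile-normalized 0.74. With the median of all genes subtracted as well, MT2A stood at 0.68, 1.47 and 0.87 with EEDS and at 0.53, 1.65 and 1.55 with helveticoside. The scaled log2 ratios at the top EEDS dose were 0.53 for MT1E, 0.50 for MT1H and 0.39 for MT1X. Their quantile-normalized log2 ratios were 0.27, 0.26 and 0.13. After the median was subtracted from the scaled ratios, these MT1 members stood at 0.88, 0.85 and 0.74. At the middle EEDS dose they stood at 1.47, 1.48 and 1.25, still above the top dose. With the median subtracted, SLC30A1 was 0.09 above the median gene at the middle EEDS dose and 0.08 above it at the top EEDS dose. It was 0.02 above it at the middle helveticoside dose. The quantile-normalized ratio was below 0 at these doses, and the median subtracted was itself -0.21, -0.36 and -0.12. SLC30A1 remained below the median gene, at -0.58, at the top helveticoside dose.

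A dose trend was tested for each agent as the slope of the log2 level per dose step, with the vehicle as the first step, in a limma fit over 19046 genes and the 8 arrays. Arrays about the trend line stand in for replicates there, and that spread may be technical. In the limma fits, members and list genes were counted only when well above background on all arrays. The shares of all genes beside them are over all 19046 genes tested, without that filter. MTF1 was the only member with a trend past an adjusted p of 0.05. It rose by 0.27 ± 0.06 (SE) per helveticoside step (limma adjusted p = 0.0411), where 5.48% of genes rose. With EEDS the MTF1 slope was 0.19 ± 0.06 (limma adjusted p = 0.0796). The helveticoside call of MTF1 was not kept with the signal as scanned, another background correction, 75th percentile scaling or the authors' own intensity table. The MTF1 call was lost in the limma fit when any 1 of the 8 arrays was left out, with adjusted p of 0.0564 to 0.316 and slopes of 0.25 to 0.28. Without the middle or the top helveticoside array no gene at all passed that trend, so the loss there says nothing about MTF1, while 469 to 1479 genes passed in the other 6 fits.

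No member had a rising or falling EEDS trend past the adjusted threshold, where 7.27% of genes rose and 7.85% fell. No member had a falling helveticoside trend past it, where 5.8% of genes fell. At an unadjusted p under 0.05 in the limma fit there were 1 member, MTF1, with EEDS and 2, MTF1 and MT2A, with helveticoside. The share of all genes at that unadjusted limit was not counted. The MT2A slope was 0.28 ± 0.12 with EEDS (limma adjusted p = 0.181) and 0.38 ± 0.12 with helveticoside (limma adjusted p = 0.111). A straight slope gives little weight to a level that is highest at the middle step, as it was for MT1E, MT1H and the brighter MT1X probe.

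The slopes of the agents were compared in the same fit, and the difference passed for 0.0% of genes and for no member. At an unadjusted p under 0.05 there were 525 genes and 0 members. The 95% interval of the EEDS slope minus the helveticoside slope was -0.54 to 0.34 for MT2A, -0.78 to 0.42 for MT1E, -0.28 to 0.12 for MTF1 and -0.24 to 0.46 for SLC30A1, in log2 per step. These intervals still hold differences larger than the slopes themselves.

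A further limma fit, added after these values had been seen, treated the lowest, middle and top dose steps as levels shared by both agents, with the series as a block and 3 residual degrees of freedom. It asks where both series stood apart from their controls together, and it sets 2 agents at unmatched doses side by side as if they were repeats. At the middle step 4 members were higher, where 10.7% of genes were higher and 11.4% lower. MT2A was higher by 1.11 ± 0.15 on the log2 scale (SE, limma adjusted p = 0.0163) and MT1E by 1.06 ± 0.17 (limma adjusted p = 0.0220). MT1H, by its bright probe, was higher by 1.03 ± 0.18 (limma adjusted p = 0.0251) and MT1X, by its brighter probe, by 0.83 ± 0.16 (limma adjusted p = 0.0311). The calls of MT1E, MT1H and MT1X may not be separate, since their probes may read shared MT1 RNA. MT1F, MTF1 and SLC30A1 did not pass at that step, with differences of -0.20, 0.42 and -0.10.

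The 4 middle-step calls were lost together when either vehicle control or either middle-dose array was left out, which leaves 1 array on one side of the comparison, and were kept when any of the other 4 arrays was. Without the EEDS control 11 of all genes passed at that step, and without each of the other 3 arrays 0 did, so those losses say little about the members. Their log2 differences over the 8 omissions stayed at 1.0 to 1.22 for MT2A, 0.98 to 1.15 for MT1E, 0.98 to 1.07 for MT1H and 0.82 to 0.85 for MT1X. With the mean of both MT1X probes the MT1X difference was 0.52 (limma adjusted p = 0.0527). With the mean of both MT1H probes, the dim one included, the middle-dose log2 ratio of MT1H was 0.53 for EEDS and 0.49 for helveticoside. The dim MT1H probe was well above background on no array.

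At the top step of the shared fit, MT2A was higher by 0.90 ± 0.15 (limma adjusted p = 0.0112) and MTF1 by 0.67 ± 0.12 (limma adjusted p = 0.0134), 2 members, where 18.4% of genes were higher. MT1F, 1 member, was lower, with a log2 difference of -0.46 ± 0.08 (limma adjusted p = 0.0123), where 19.8% of genes were lower. SLC30A1 differed by -0.47 ± 0.17 and did not pass (limma adjusted p = 0.10). MT2A and MTF1 each passed in 6 of the 8 fits with 1 array left out and MT1F in 4. At the lowest step no member passed the adjusted threshold, where 0.0105% of genes were higher and 0.0% lower. At an unadjusted p under 0.05 in the limma fit there were 5 members. The share of all genes at that looser limit was not counted, so the 5 cannot be set against those percentages.

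**Figure D2:**
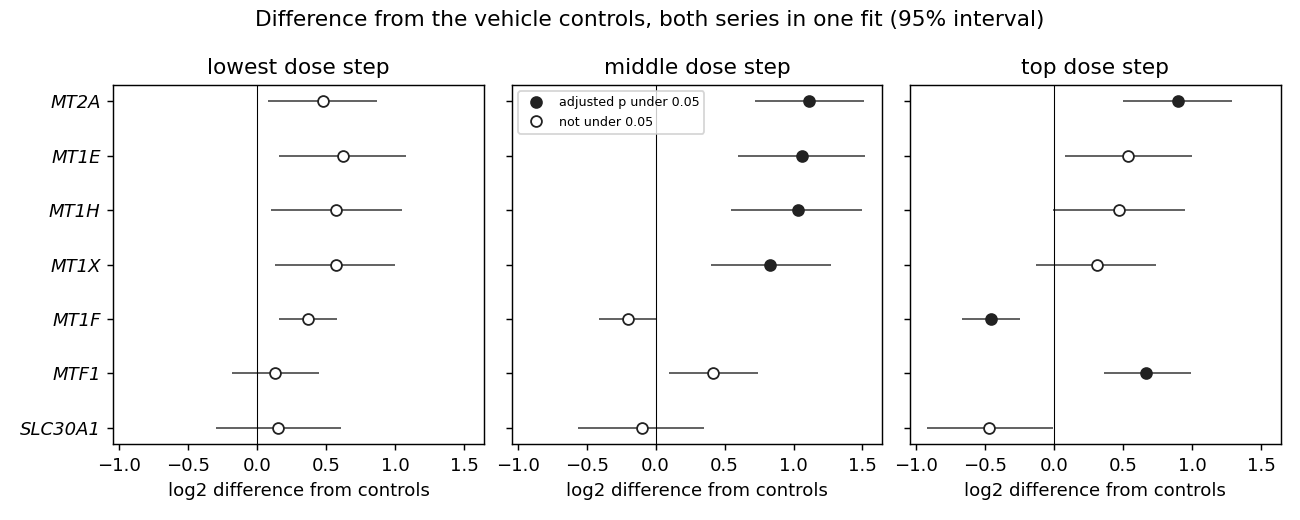
Log2 difference from the vehicle controls (horizontal axis) for each measured member at the 3 dose steps, from the limma fit that shares the steps between both series, with 95% intervals as bars and filled points for an adjusted p under 0.05. MT2A, MT1E, MT1H and MT1X are filled at the middle step, and MT2A, MTF1 and MT1F at the top step.

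The other metallothionein genes divided in the same way. Of 9 listed, 7 had a probe, 4 were well above background on all arrays (MT1A, MT1B, MT1L and MT3), MT1DP and MT1IP were so on 3 arrays, and MT4 was on none. Across MT1A, MT1B, MT1E, MT1H, MT1L and MT1X the median log2 ratio was 0.69, 1.04 and 0.26 at the 3 EEDS doses and 0.45, 0.98 and 0.71 at the 3 helveticoside doses. These 6 genes were grouped after their values were seen, so their likeness is a description. They ran from 0.58 for MT1A to 1.06 for MT1H at the middle EEDS dose and from 0.72 for MT1A to 1.09 for MT1E at the middle helveticoside dose. MT1F and the dimmer MT1X probe, also well above background on all arrays, lay outside this range, at -0.22 and 0.00 at the middle EEDS dose and -0.18 and 0.43 at the middle helveticoside dose. In the shared limma fit MT1A was higher at the middle step by 0.65 ± 0.14 (adjusted p = 0.0367), MT1B by 1.01 ± 0.18 (adjusted p = 0.0247) and MT1L by 1.04 ± 0.17 (adjusted p = 0.0226). MT3, the isoform best known from brain, differed by -0.11 ± 0.13 there and by -0.42 ± 0.13 at the top step, and neither passed (limma adjusted p = 0.660 and 0.0671).

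MT1 genes are near-identical in sequence, and the sequences of the probes were not used here. How far the MT1 probes report separate genes or a shared pool of MT1 RNA therefore cannot be told apart. Their agreement is not evidence from 6 separate measurements. The counts and medians above take the MT1 genes as separate, so they may hold the same signal more than once. MT1L is annotated as a pseudogene in the reference human sequence, and its probe moved with those of its coding relatives.

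**Figure D3:**
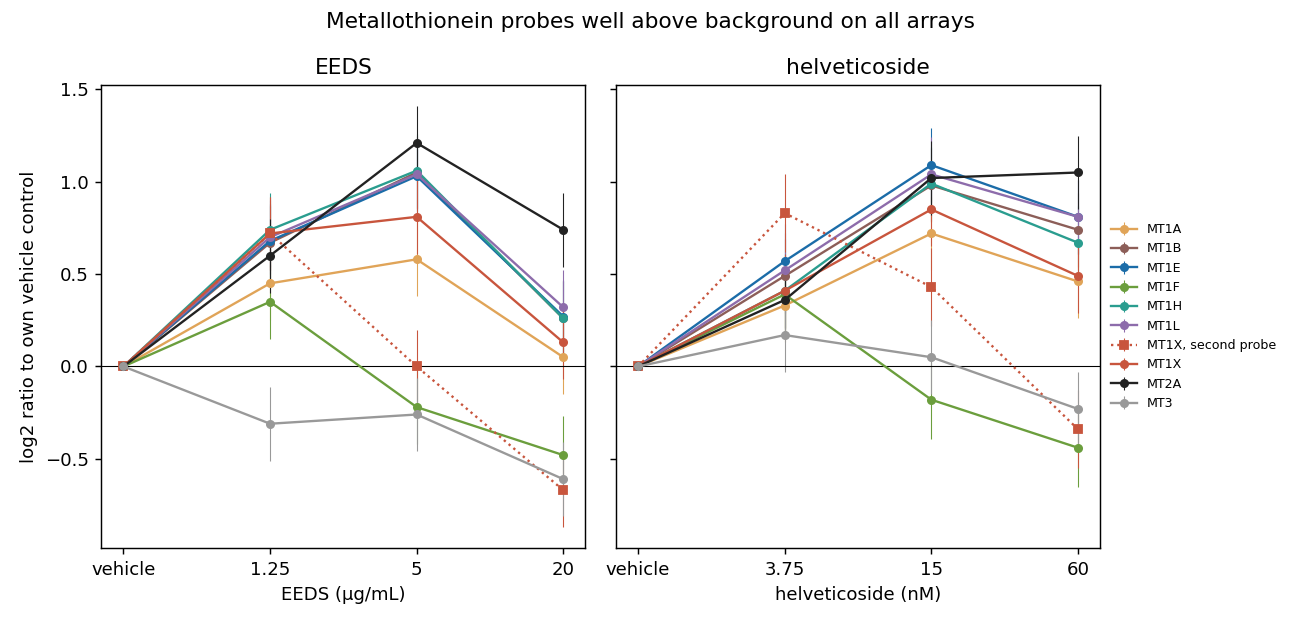
Log2 ratio to the own vehicle control (vertical axis) by dose (horizontal axis, µg/mL or nM) for each metallothionein probe well above background on all 8 arrays, with the scanner software's error as bars. MT2A and 6 MT1 genes lie above 0 at all doses, the second MT1X probe and MT1F cross to below 0 by the top dose, and MT3 is below 0 at the top dose.

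The remaining zinc transporters did not move as 1 group. SLC30 proteins move zinc out of the cytosol, and of the 9 others besides SLC30A1, 6 were well above background on all arrays. SLC30A7, which loads zinc into the early secretory pathway, rose with both agents, with log2 ratios at the 3 doses of 0.29, 0.72 and 1.26 for EEDS (limma adjusted p = 0.0310) and -0.09, 0.50 and 1.03 for helveticoside (limma adjusted p = 0.0480). It was the only 1 of those 6 with a trend, beside 7.27% of all genes rising with EEDS and 5.48% with helveticoside. SLC30A6, its relative in the same compartment, was at -1.10 and -0.83 at the top doses without passing. The list's median log2 ratio at the top dose was -0.09 with EEDS and 0.02 with helveticoside.

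SLC39 proteins bring zinc into the cytosol, and 11 of 14 were well above background on all arrays. With EEDS 2 rose and 1 fell, and with helveticoside 3 rose and 0 fell by the limma trend. Over all genes 7.27% rose and 7.85% fell with EEDS, and 5.48% rose and 5.8% fell with helveticoside. SLC39A14, an importer of zinc and other metals at the cell surface, had log2 ratios of 0.57, 1.32 and 1.45 with EEDS and 0.03, 1.15 and 1.57 with helveticoside (limma adjusted p = 0.0344 and 0.0308). SLC39A7, which releases zinc from the endoplasmic reticulum, reached 1.31 and 1.24 at the top doses (limma adjusted p = 0.0214 and 0.0278). SLC39A1, a surface importer, reached 1.10 and 1.29 and passed with helveticoside only (limma adjusted p = 0.0508 and 0.0397). SLC39A8, another surface importer, was at -1.48 and -1.51 and passed with EEDS only (limma adjusted p = 0.0437 and 0.0513). Neither of those pairs was shown to differ between agents, since no slope difference passed in any gene. The median log2 ratio of the list at the top dose was 0.41 with EEDS and 0.35 with helveticoside.

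All 9 copper genes and all 9 iron genes of the fixed lists were well above background on all arrays. Among copper genes, 2 rose and 1 fell with EEDS, against 7.27% and 7.85% of all genes, and 2 rose and 0 fell with helveticoside, against 5.48% and 5.8%. SLC31A2, a copper transporter of internal membranes, reached log2 ratios of 1.26 and 1.07 at the top doses (limma adjusted p = 0.0167 and 0.0279), and ATP7B, a copper-exporting pump, was at -1.50 and -1.01 (limma adjusted p = 0.0402 and 0.0962). CCS, the copper chaperone of superoxide dismutase, was at -1.03 and -0.77 without passing. Among iron genes, 0 rose and 2 fell with EEDS, and 0 passed with helveticoside in either direction, beside the same shares of all genes. SLC40A1, the iron exporter ferroportin, had the lowest log2 ratios of the metal lists, at -2.64 and -2.50 (limma adjusted p = 0.0350 and 0.0502), and STEAP3, a ferric reductase, was at -1.94 and -1.53 (limma adjusted p = 0.0583 and 0.102).

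Genes known as MTF1 targets outside the metallothioneins were listed as 8, of which 7 were well above background on all arrays. By the limma trend 2 rose and 1 fell with EEDS, where 7.27% of all genes rose and 7.85% fell, and 2 rose and 0 fell with helveticoside, where 5.48% rose and 5.8% fell. CSRP1, a LIM-domain protein, reached log2 ratios of 1.16 and 1.29 (limma adjusted p = 0.0144 and 0.0165), and NDRG1, a stress-responsive gene, 0.83 and 1.09 (limma adjusted p = 0.0378 and 0.0279). PGF, placental growth factor, was at 1.53 and 0.48 without passing (limma adjusted p = 0.0618 and 0.554). The gene that fell with EEDS was SLC40A1. The list's median log2 ratio at the top dose was 0.65 with EEDS and 0.41 with helveticoside. The list was not split by whether MTF1 raises or lowers a gene, so its counts and median are not a reading of MTF1 activity.

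**Figure D4:**
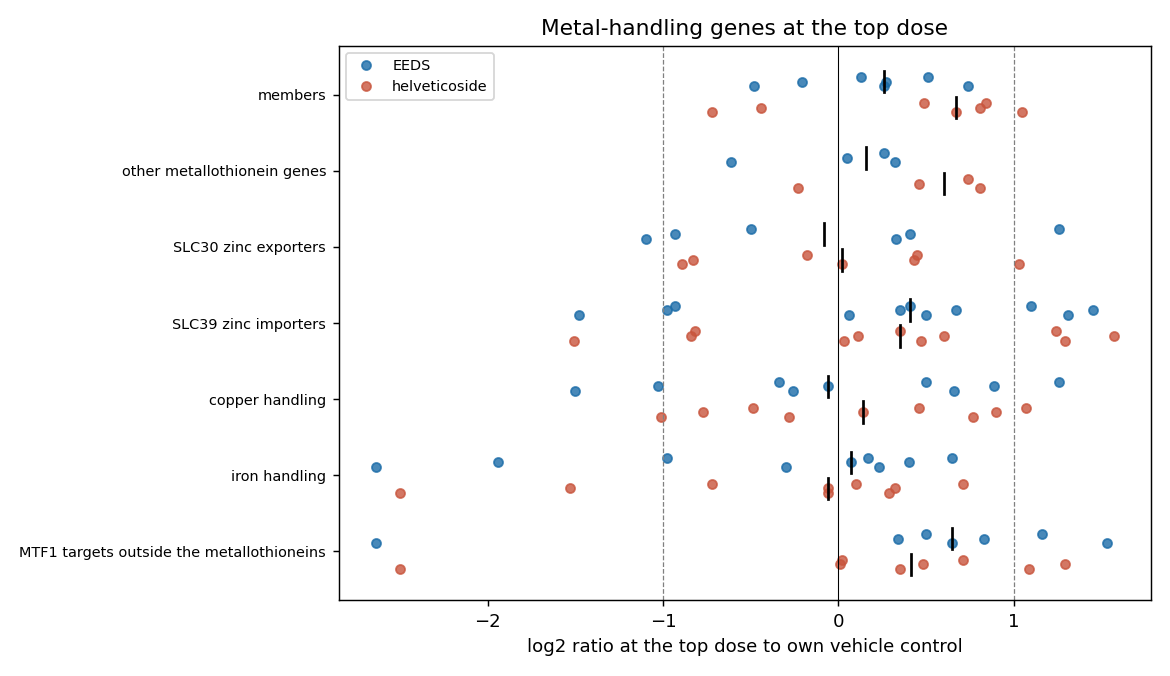
Log2 ratio at the top dose to the own vehicle control (horizontal axis, dashed lines at 2-fold) for genes of each metal list that were well above background on both arrays, 1 point per gene, EEDS in blue and helveticoside in red, with the list's median as a black bar. The members lie between -0.48 and 0.74 with EEDS and between -0.72 and 1.05 with helveticoside, while SLC40A1, in the iron list and in the MTF1 target list, lies at -2.64 and -2.50.

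Outside the metal lists, genes whose 6 log2 ratios came close to those of a member were named by the root mean square difference, among 11436 genes that cleared the background on every array. For MT2A they were SERPINE2, a secreted protease inhibitor, at 0.05, ANAPC13, a subunit of the anaphase-promoting complex, at 0.09, and NFE2L1, a transcription factor of proteasome genes, at 0.09. For MTF1 they included URB2, a ribosome biogenesis factor, at 0.09, and NANOS3, a germ-cell RNA-binding protein, at 0.09. For SLC30A1 they included FXR1, an RNA-binding protein, at 0.11, and CDK10, a cyclin-dependent kinase, at 0.12. The 6 ratios of a gene share 2 control arrays, so they are not independent.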

How the data were processed

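For each array the authors deposited the intensity of every spot as read by the scanner software, namely its median signal, its local background and a processed signal with the background removed, together with flags for outlying, saturated and detected spots. The authors also deposited a linear intensity table, which from its values holds median signal minus local background, quantile-normalized within each series. The median signal was 182 to 214 per array for EEDS and 223 to 278 for helveticoside, over local backgrounds of 27.0 to 28.0 and 32.5 to 34.0. Between 54.5% and 64.9% of probes were well above background, no spot was saturated, and the small number of arrays limits the precision.

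Flagged outliers and control spots were dropped. Each probe took the mean processed signal of its spots, quantile normalization was run across the 8 arrays, and values were expressed as log2. Accessions of 24827 of 34127 probes matched a gene of GRCh38.p14. Where a gene had several probes, the one with the highest mean signal was used. Genes were tested when, in each series, 1 array or more was at least 1.4 times its local background. Normalized values on arrays under that limit were raised to at least the lowest value above it on the same array. Each dose was compared with its own vehicle control, at 2-fold. Dose trends, their difference and a fit with shared dose steps were fitted in R 4.3.3 by limma 3.58.1, with robust estimation and an intensity trend (through statmod 1.5.0), and Benjamini-Hochberg adjustment over all genes at 0.05, checked on simulated data. The trend fit had 4 residual degrees of freedom. In simulated data with 200 of 19046 genes changed, it called 42% of log2 slopes of 1 per step and 20% of the smaller slopes. The shared fit called 17% of simulated middle-step shifts of 2 and 1% of shifts of 1. A member that did not pass is therefore not shown to be unchanged. Other values came from Python 3.11.15, numpy 2.4.6 and pandas 2.3.3.

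The members and lists were chosen with earlier results of these data known. Named genes were the members, up to 4 genes per list past 2-fold at a top dose, and the 3 genes nearest to MT2A, MTF1 and SLC30A1, of which some are not reported here. Alternatives were the background correction, the scaling, the authors' table, filters, the probe rule, outlier spots, the control array, the prior, the samples in the fit, the dose scale and the fold limit. The shared fit and the omission of each array were added after seeing the data. RefSeq promoters of GRCh38.p14 were matched by symbol, for 5 of 9 members.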

Additional observations from a re-analysis of the deposited data

How the results depend on the processing

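Of the counts of members under the alternatives, 293 stayed within 1.5 times the reported count and 44 did not. Most of the 293 set a reported count of 0 against 0, so they say little about stability. The EEDS slope of 3 members, none past the threshold in any of these limma fits, turned from above to below 0: with the dose itself to -0.13 for MT1E, -0.16 for MT1H and -0.27 for MT1X, and for MT1X also to -0.11 with the mean of its probes and to -0.01 without the middle dose. With 1 array left out these slopes ran from -0.21 to 0.52, from -0.24 to 0.53 and from -0.30 to 0.41. Among ratios under 2-fold, MT1X at the top EEDS dose went to -0.27 with the mean of its probes, and against the control of the other series MTF1 went to -0.26 and -0.06 at the lowest and middle helveticoside doses and to 0.53 at the lowest EEDS dose, and SLC30A1 to 0.01 at the middle EEDS dose. At a 1.5-fold limit 4 members were higher at the lowest and 1 at the top EEDS dose. At that limit 4 were higher at the middle and 4 at the top helveticoside dose, and 1 was lower at the top helveticoside dose. At a 3-fold limit 0 were higher at the middle EEDS, middle helveticoside or top helveticoside dose. The share of all genes past either limit was not counted, so these counts have no background beside them. The member counts under the other processing settings below are also given without the share of all genes under the same setting. At the 2-fold limit the authors' table gave 1 member higher at the middle EEDS dose, and no filter gave 1 at the lowest helveticoside dose. With 75th percentile scaling 4 were higher at the middle and 3 at the top helveticoside dose. Against the control of the other series 1 was higher at the top EEDS dose and 0 at the top helveticoside dose. Members with a rising helveticoside trend numbered 0 with the signal as scanned, with 75th percentile scaling, with each series alone, without the lowest, middle or top dose and with the dose itself, and 2 among genes well above background on all arrays. MTF1 passed that trend in 4 of 8 processing settings (limma adjusted p 0.0404 to 0.165) and MT2A in 3 (0.0388 to 0.111). The settings in which MTF1 passed changed only a filter, the probe rule or the outlier spots. MTF1 did not pass with the signal as scanned, another background correction, 75th percentile scaling or the authors' table. With 1 array left out, the trend had 0 to 1 member. In the shared fit, members higher at the middle step ranged from 0 to 4, those higher at the top step from 0 to 4 and those lower there from 0 to 1. The shared top step gave 5 higher with 75th percentile scaling, and 4 higher and 2 lower among genes well above background on all arrays. The cause of these shifts was not tested. No paired analysis was possible because each group holds 1 array, so that its replicate number pairs nothing, and only the series could serve as a block, as it does in the shared fit. With pooled RNA and 1 array a dose, a single ratio cannot be set against culture-to-culture spread.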
